A study of Mus musculus with 12 samples.

Results

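Irf4, Batf, Rora, Pparg, Prdm1, Maf, Id2, Tbx21 and Nfil3 encode transcription regulators of effector Treg cells, the activated and tissue-seeking form of the Foxp3-positive CD4 T cells that restrain immune responses. These 9 genes were taken by name from a table of read counts for 55453 genes in 12 libraries. Of the 9, 5 passed the filter on low counts, as did 12411 genes of the whole table. The table comes from RNA sequencing of C57BL/6 Treg cells, sorted by flow cytometry on CD4 and Foxp3 from mice matched for age and sex. The titles of all 12 libraries hold ThyTreg, read here as Treg cells of the thymus. The series concerns how CNS4, an enhancer far from the Foxp3 gene, serves Treg commitment in the thymus. The groups, of 3 libraries each, were males labelled CNS4 floxed (wild type), males labelled CNS4 knockout, females labelled CNS4 floxed heterozygotes and females labelled CNS4 knockout heterozygotes. The cells received no treatment after the sort. Foxp3 lies on chromosome X, and the labels did not say which allele was in use in the sorted cells of heterozygous females. They gave neither an age nor a Cre line, nor whether libraries stem from different animals. The p-values therefore measure the spread between these libraries, which may be technical.

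As background, IRF4 and BATF bind DNA together at composite sites, BATF as a partner of JUN proteins, and both are induced by T cell receptor signals and needed for effector Treg cells. Blimp-1, the product of Prdm1, acts downstream of IRF4 and, with c-MAF from Maf, favours expression of the cytokine IL-10. RORα from Rora and PPARγ from Pparg are nuclear receptors of tissue Treg cells, PPARγ above all in adipose tissue. ID2 binds E proteins and keeps them off DNA, T-bet from Tbx21 directs the type 1 programme, and NFIL3 is a bZIP repressor. Several are not specific to Treg cells: macrophages use Pparg and Maf, and innate lymphoid cells use Id2, Rora, Tbx21 and Nfil3.

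Gene counts per library ran from 12423335 to 30244505, the highest being male knockout library 3. Genes of the plus strand held 95.8 to 97.2% of the reads of protein-coding genes. Of 10875 such genes on the plus strand 51.8% had a mean count over 50, against 8.47% of 10908 on the minus strand. Foxp3 lay between 685 and 2670 CPM (read counts scaled to the TMM-adjusted library total) in the 12 libraries and Cd3d between 776 and 1220 CPM, while the sort marker Cd4, on the minus strand, had 72 to 198 counts. Female knockout libraries 1 and 3 stood apart on the first principal component (49.8% of the variance), at scores of 98.9 and 93.4 where the next, female floxed library 1, was at 33.1. Their deviations from the gene means also had the lowest Spearman rho with GC content across genes, -0.355 and -0.257, where genes are not independent replicates. Foxp3 itself, whose enhancer is deleted, averaged 2500 ± 238 CPM in male floxed, 1790 ± 297 CPM in male knockout, 2630 ± 43.8 CPM in female floxed and 1110 ± 621 CPM in female knockout libraries (SD, n = 3 each). Female knockout libraries 1 and 3 had the lowest Foxp3 of all 12, 685 and 825 CPM, where female knockout library 2 had 1820 CPM. Every knockout library lay below every floxed library, with at most 2040 CPM (male knockout library 3) against at least 2230 CPM (male floxed library 4). Of all tested genes 1.78% were lower in knockout without overlap in both sexes. Over both sexes the log2 fold change of Foxp3, knockout over floxed, was -0.86 (SE 0.22, edgeR adjusted p = 0.06), which did not pass the threshold.

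The strand divides the 9 genes. Irf4 (chromosome 13), Batf (chromosome 12), Rora (chromosome 9) and Pparg (chromosome 6) lie on the plus strand and had 46 to 10785 counts in each library. Prdm1 (chromosome 10), Maf (chromosome 8), Id2 (chromosome 12), Tbx21 (chromosome 11) and Nfil3 (chromosome 13) lie on the minus strand and had 0 to 24. Few counts on the minus strand do not show a low transcript level, so levels are described for the plus-strand genes and raw counts for the others.

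Per kilobase of exon in the 6 floxed libraries, the bZIP gene Batf stood highest at 108 ± 7.80 CPM per kilobase (SD, n = 6). Irf4 followed at 43.7 ± 5.54 CPM per kilobase, Rora at 19.1 ± 3.58 CPM per kilobase and Pparg at 3.61 ± 3.49 CPM per kilobase (SD, n = 6 each). No neighbours in this order overlapped among the floxed libraries: the lowest Batf value was 96.1 and the highest Irf4 value 50.8 CPM per kilobase, the lowest Irf4 33.9 and the highest Rora 23.2, the lowest Rora 13.2 and the highest Pparg 10.2. In the 6 knockout libraries the order was the same, with Batf at 156 ± 23.1, Irf4 at 64.9 ± 3.41, Rora at 22.4 ± 8.76 and Pparg at 4.71 ± 3.12 CPM per kilobase (SD, n = 6 each), again with no overlap between neighbours. This order depends on exon lengths from GENCODE release M21, 1406 bases for Batf, 4903 for Irf4 and 13071 for Rora. The annotation used for the counts is not given. In CPM, not divided by length, the floxed libraries averaged 250 ± 46.8 for Rora, 214 ± 27.2 for Irf4, 153 ± 11 for Batf and 10.6 ± 10.3 for Pparg (SD, n = 6 each).

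The comparison of knockout with floxed cells asked which of these factors differ when the Foxp3 enhancer is missing. Irf4 and Batf were higher in every knockout library than in every floxed library, in males and in females, and both rose over the sexes together. Rora, Pparg and Id2 overlapped between the genotypes in each sex and did not pass the test. Of the 5 genes tested, 2 were thus called higher and 0 lower, where 3.31% of all 12411 genes were called, 2.68% higher and 0.637% lower. Values that did not overlap in either sex were found for 3.97% of all tested genes with knockout higher in both and for 1.78% with knockout lower in both. Within males alone these shares were 8.2% and 6.13%, and within females 15.3% and 9.7%. In bulk RNA, fewer cells of a type and less RNA per cell cannot be told apart.

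Irf4 encodes interferon regulatory factor 4, which sets how far T cells go toward the effector state after receptor stimulation. Its level in male floxed libraries 1, 2 and 4 was 166, 215 and 249 CPM, and in male knockout libraries 1, 2 and 3 it was 314, 324 and 299 CPM. In female floxed libraries 1, 2 and 3 it was 227, 211 and 218 CPM, and in female knockout libraries 345, 325 and 303 CPM. The 6 knockout libraries spanned a narrow range, above even the highest floxed value, that of male floxed library 4. Group means were 210 ± 41.5 and 312 ± 12.4 CPM in males and 219 ± 7.86 and 324 ± 21 CPM in females (SD, n = 3 each). Over both sexes the log2 fold change, knockout over floxed, was 0.57 (SE 0.10, edgeR quasi-likelihood p adjusted by Benjamini-Hochberg over all genes, 0.013, with 1.69e-05 to 0.111 over 23 alternatives). The call was lost without female floxed library 2 (0.54, edgeR adjusted p = 0.0574), without female floxed library 3 (0.56, edgeR adjusted p = 0.0575) and without female knockout libraries 1 and 3, where the difference was still 0.57 (edgeR adjusted p = 0.111).

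Batf encodes a small bZIP protein of the AP-1 family that partners IRF4 on DNA. Male floxed libraries 1, 2 and 4 had 135, 160 and 163 CPM of Batf, and male knockout libraries 1, 2 and 3 had 242, 195 and 257 CPM. Female floxed libraries 1, 2 and 3 had 143, 160 and 154 CPM, and female knockout libraries 247, 185 and 190 CPM. The floxed libraries of both sexes lay close together, while within each knockout group library 2 was the lowest. Group means were 153 ± 15.3 and 231 ± 32.3 CPM in males and 152 ± 8.21 and 207 ± 34.1 CPM in females (SD, n = 3 each). Over both sexes Batf rose by 0.52 on the log2 scale (SE 0.11, edgeR adjusted p = 0.0253, 6.64e-04 to 0.144 over 23 alternatives). This call rested on most of the libraries: it was lost in 8 of 12 fits that left out 1 library, male floxed 1 or 2, male knockout 1, female floxed 1, 2 or 3, or female knockout 1 or 3, with edgeR adjusted p values from 0.0601 to 0.0962 and a log2 fold change not under 0.44. Without female knockout libraries 1 and 3 it was 0.44 (edgeR adjusted p = 0.144), and with the level of macrophage markers as a covariate 0.55 (edgeR adjusted p = 0.0527).

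**Figure D1:**
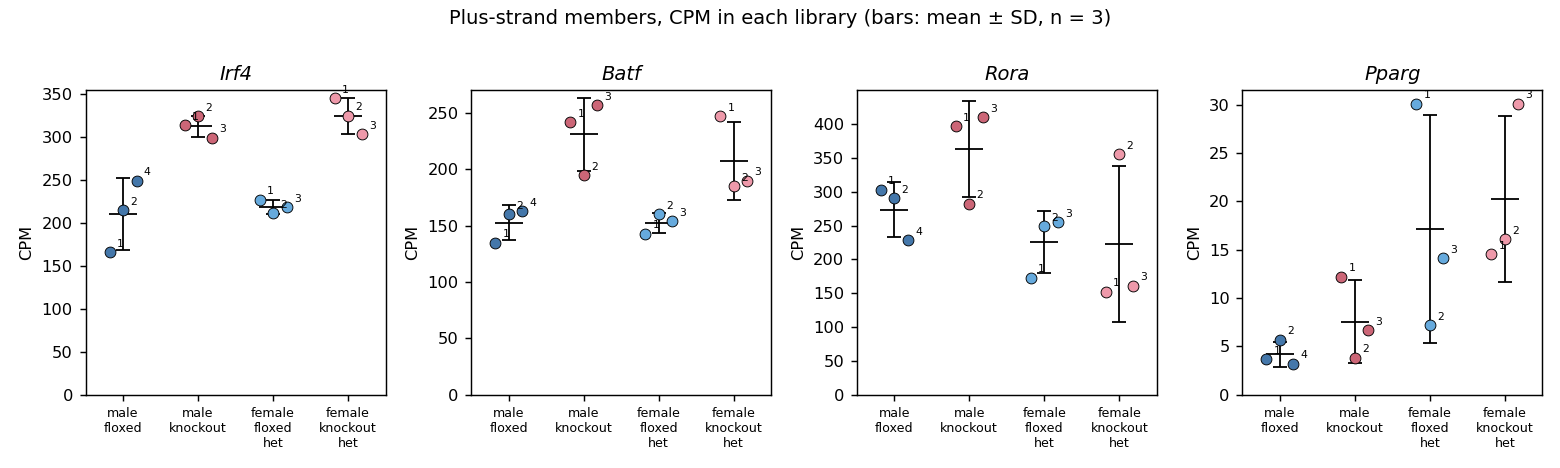
Level of Irf4, Batf, Rora and Pparg in CPM (vertical axis, from 0) in each of the 12 libraries, by group; points are libraries with their number, black bars the mean ± SD of 3. Irf4 in the knockout libraries lies between 299 and 345 CPM, above all floxed libraries, which reach 249 CPM, whereas the genotypes overlap for Rora and Pparg.

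Within each sex alone, no member passed the threshold over all genes in edgeR, where 0.0242% of genes were called in males, all higher, and 0.201% in females, 0.185% higher and 0.0161% lower. On the log2 scale, which all differences and rises given without a unit use, Irf4 differed in males by 0.57 (SE 0.14, edgeR adjusted p = 0.170) and Batf by 0.60 (SE 0.15, edgeR adjusted p = 0.203). In females Irf4 differed by 0.57 (SE 0.14, edgeR adjusted p = 0.0957) and Batf by 0.44 (SE 0.15, edgeR adjusted p = 0.183). These 2 genes were the ones with an unadjusted p under 0.05 in either sex. DESeq2 called both in males and Irf4 in females. Limma-voom with quality weights called Irf4 in males and Irf4, Batf and Rora in females, where Rora was lower. These tools also called more genes of the whole table. Of all 12411 genes DESeq2 called 235 in males and 706 in females, and limma-voom 177 in males and 5437 in females.

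The size of the rise was also compared between the sexes. Both female groups were labelled heterozygotes and Foxp3 lies on chromosome X, so sex and zygosity cannot be told apart in this comparison. For Irf4 the female minus male difference of the log2 fold changes was -0.01 (SE 0.19), with a 95% interval from -0.43 to 0.42. For Batf it was -0.15 (SE 0.21), with an interval from -0.62 to 0.31. None of the 5 tested members differed between the sexes in edgeR, DESeq2 or limma-voom, nor at an unadjusted p under 0.05 in edgeR, and 0% of all genes did in edgeR. Both intervals are wide beside the rise itself.

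Since Irf4 and Batf rose together, the DNA just upstream of each is shown, from RefSeq's table of promoters on GRCm38.p6, which matched 8 of the 9 members by symbol. The lines give the plus strand, 5′ to 3′, from 200 to 51 bases before the RefSeq start of transcription, at chr13:30749033-30749182 for Irf4 and chr12:85686520-85686669 for Batf. The counts were made on another build, mm9, so these positions do not apply to it. Capitals mark a match to the NFAT letters.
Irf4: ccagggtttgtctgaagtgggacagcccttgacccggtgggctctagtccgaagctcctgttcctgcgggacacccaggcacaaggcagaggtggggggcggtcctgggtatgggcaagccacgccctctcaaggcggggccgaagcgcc
Batf: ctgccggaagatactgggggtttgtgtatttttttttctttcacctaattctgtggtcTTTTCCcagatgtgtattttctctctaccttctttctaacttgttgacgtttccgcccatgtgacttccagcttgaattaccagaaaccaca
The 250 bases before the start were searched on both strands for 4 motifs: the AP-1 letters TGANTCA, the IRF motif, which is GAAA, 2 bases of any kind and GAAA again, the STAT letters TTCNNNGAA and the NFAT letters GGAAAA. Neither gene had a match to the first 3, which occur in 6.75%, 2.98% and 7.02% of 32851 promoters. Batf had 1 match to the NFAT letters on the opposite strand, 142 to 137 bases before the start, and Irf4 had none, where 20.4% of promoters have one. That match overlaps none of the other motifs. The stretches differ in composition, with a GC content of 67.3% for Irf4 and 41.3% for Batf.

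Rora, which encodes the nuclear receptor RORα and acts in tissue-resident lymphocytes, overlapped between the genotypes in both sexes. In males the floxed libraries 1, 2 and 4 had 303, 290 and 228 CPM and the knockout libraries 1, 2 and 3 had 397, 282 and 410 CPM. In females the floxed libraries 1, 2 and 3 had 173, 249 and 255 CPM and the knockout libraries 152, 355 and 161 CPM. Female knockout libraries 1 and 3, the ones that stood apart over all genes, had the lowest Rora of all 12, and female knockout library 2 exceeded every floxed library. The log2 fold change was 0.19 (SE 0.22, edgeR adjusted p = 0.640, 95% interval -0.30 to 0.69) over both sexes, 0.41 (SE 0.31, edgeR adjusted p = 0.926) in males and -0.02 (SE 0.31, edgeR adjusted p = 0.978) in females. The female value depended on these libraries: it was 0.66 without female knockout libraries 1 and 3 and -0.51 without library 2, and 0.19 or 0.17 without library 1 or 3 alone, and 0.043 or 0.072 without female floxed library 2 or 3. The female minus male difference was -0.42 (SE 0.44, 95% interval -1.41 to 0.56). Rora shares 82 exonic bases with the minus-strand gene Gm15511, which had 0 to 21 counts. Innate lymphoid cells also express Rora, and 11 markers of these and NK cells, 4 of them on the plus strand and 3 at 0 in all libraries, summed to 209 to 367 CPM over the 12 libraries. Ncr1 did not exceed 0.529 CPM and Eomes 6.21 CPM, both on the plus strand, so other genes of the list made up most of this sum. The summed level was 307 to 309 CPM in male floxed, 209 to 273 CPM in male knockout, 300 to 367 CPM in female floxed and 280 to 310 CPM in female knockout libraries, and its part in the Rora level was not tested.

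Pparg, which encodes the lipid-sensing receptor PPARγ, was the rarest of the plus-strand members. Male floxed libraries 1, 2 and 4 had 3.66, 5.67 and 3.20 CPM and male knockout libraries 1, 2 and 3 had 12.2, 3.84 and 6.65 CPM. Female floxed libraries 1, 2 and 3 had 30.1, 7.17 and 14.1 CPM and female knockout libraries 14.5, 16.1 and 30.1 CPM. Each floxed female library was above each floxed male library and the genotypes overlapped within each sex. Over both sexes the knockout to floxed log2 fold change was 0.55 (SE 0.39, edgeR adjusted p = 0.443, 95% interval -0.33 to 1.42), with 0.86 (SE 0.57) in males and 0.24 (SE 0.55) in females. Over both sexes it was 0.28 without male knockout library 1, 0.33 without female knockout library 3, 0.34 without female floxed library 2 and 0.89 without female floxed library 1, and in males 0.34 without male knockout library 1. The female minus male difference of this effect was -0.62 (SE 0.79, 95% interval -2.36 to 1.13). Between floxed females and floxed males Pparg differed by 2.04 (SE 0.58, unadjusted p = 0.00524), which did not pass over all genes (edgeR adjusted p = 0.665, 0.0784 to 1 over 22 alternatives). That comparison called 0.0322% of all genes, 0.00806% higher and 0.0242% lower in females, and none of the 5 members in edgeR, DESeq2 or limma-voom. Without overlap 10.7% of all genes were higher and 14.3% lower in floxed females. The floxed females were labelled heterozygotes, so sex and zygosity cannot be told apart here either.

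Mrc1, the mannose receptor of tissue macrophages, was looked at after the Pparg values were seen. It ran from 8.97 to 320 CPM and was highest in the libraries with the most Pparg, female knockout library 3 (320 CPM) and female floxed library 1 (314 CPM). The summed level of 18 myeloid and macrophage markers, 8 of them on the plus strand, was 106 to 1790 CPM in male floxed, 230 to 1930 CPM in male knockout, 267 to 1140 CPM in female floxed and 835 to 1700 CPM in female knockout libraries. It did not follow Pparg in male floxed library 4 and male knockout library 2, which had the highest sums, 1790 and 1930 CPM, with 3.20 and 3.84 CPM of Pparg. These libraries also had the most Adgre1 (441 and 468 CPM) and Timd4 (168 and 171 CPM). They likewise had the most Itgam (173 and 200 CPM) and Cd5l (223 and 242 CPM), unlike Mrc1. Csf1r was highest in male floxed library 4 (464 CPM), followed by female knockout library 3 (457 CPM). Of the 18 markers none was at 0 in all libraries, but Cd68, C1qa, Cd14, Marco and Siglec1, all on the minus strand, did not exceed 0.405 CPM, and of the 11 tested none was called over both sexes, with a median log2 fold change of 0.74. The part of macrophages in the Pparg level was not tested. Dendritic cells and B cells also use Irf4 and Batf: 8 dendritic markers summed to 226 to 3620 CPM in male floxed, 341 to 3980 CPM in male knockout, 255 to 663 CPM in female floxed and 1030 to 1310 CPM in female knockout libraries. The 7 B cell markers summed to 20.3 to 45 CPM in male floxed, 21.3 to 70.7 CPM in male knockout, 21.7 to 28.2 CPM in female floxed and 31 to 47.5 CPM in female knockout libraries. For Irf4 and Batf, a fit with the mean level of the macrophage markers as a covariate gave 0.51 (edgeR adjusted p = 0.0361) and the value for Batf given above, and a fit that left out the male libraries floxed 4 and knockout 2 gave 0.64 (edgeR adjusted p = 0.0140) and 0.62 (edgeR adjusted p = 0.0299). No fit took the dendritic or B cell markers as a covariate, and the part of these cells in Irf4 and Batf was not tested.

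**Figure D2:**
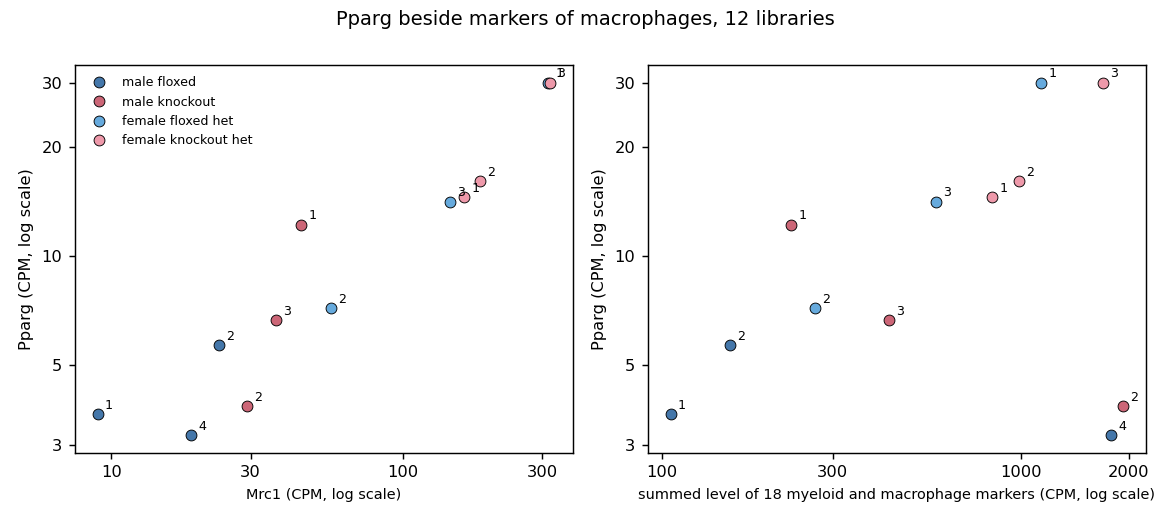
Level of Pparg in CPM (vertical, log scale) against Mrc1 (left) and against the summed level of 18 myeloid and macrophage markers (right), both in CPM on a log scale, 1 point per library, coloured by group and numbered. The libraries with 30.1 CPM of Pparg have 314 and 320 CPM of Mrc1, while male floxed library 4 and male knockout library 2 combine the highest marker sums with low Pparg.

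Among the minus-strand members only Id2 passed the count filter. Id2 had 8, 3 and 10 counts in male floxed libraries 1, 2 and 4, and 15, 17 and 14 in male knockout libraries 1, 2 and 3. It had 5, 11 and 5 counts in female floxed and 24, 9 and 6 in female knockout libraries 1, 2 and 3. Raw counts did not overlap in males, but male knockout library 3 was sequenced more deeply, and scaled for depth its 0.532 CPM lay below the 0.552 and 0.695 CPM of male floxed libraries 1 and 4. Id2 differed by 0.79 over both sexes (SE 0.42, edgeR adjusted p = 0.312, 95% interval -0.14 to 1.72), and by 0.46 without female knockout library 1, which held the 24 counts. At so few counts the interval is wide, and it includes 0.

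Prdm1, Maf, Nfil3 and Tbx21 were not tested because of their counts. Prdm1 had 1, 4 and 0 counts in male floxed libraries 1, 2 and 4, 8, 4 and 10 in male knockout, 2, 1 and 3 in female floxed and 4, 3 and 1 in female knockout libraries 1, 2 and 3. Summed over the sexes that is 11 counts in floxed and 30 in knockout libraries, the latter more deeply sequenced in 1 library, and CPM values overlapped in both sexes. Maf had 1, 0 and 2 counts in male floxed, 2, 0 and 2 in male knockout, 1, 0 and 0 in female floxed and 3, 1 and 2 in female knockout libraries, 14 in all. Nfil3 had 1 count in each of 2 libraries. Tbx21 had 0 counts in all 12 libraries, which allows up to 0.114 to 0.233 CPM per library at 3 counts, for counting error only. When the count filter was dropped, Prdm1 differed by 0.99 (SE 0.67, edgeR adjusted p = 0.693) and Maf by 1.08 (SE 0.99, edgeR adjusted p = 0.835) over both sexes.

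A plus-strand gene opposite Maf gave more counts. Gm15655, annotated as antisense, has 440 exonic bases, every one of which GENCODE release M21 also assigns to Maf exons, and was singled out after its values were seen. Male floxed libraries 1, 2 and 4 had 1.79, 1.71 and 3.13 CPM and male knockout libraries 1, 2 and 3 had 5.35, 4.70 and 5.09 CPM. Female floxed libraries 1, 2 and 3 had 2.09, 2.49 and 2.20 CPM and female knockout libraries 7, 3.72 and 5.68 CPM. The genotypes did not overlap in either sex. Gm15655 rose over both sexes by 1.23 (SE 0.21, edgeR adjusted p = 0.0133, 5.7e-06 to 0.151 over 23 alternatives), and the call was lost without female floxed library 3 (edgeR adjusted p = 0.0531) and without female knockout libraries 1 and 3 (0.95, edgeR adjusted p = 0.151). Since the strand setting of the counting is not given in the sources used here, reads of Gm15655 and of Maf cannot be told apart, and the value is no measure of Maf.

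**Figure D3:**
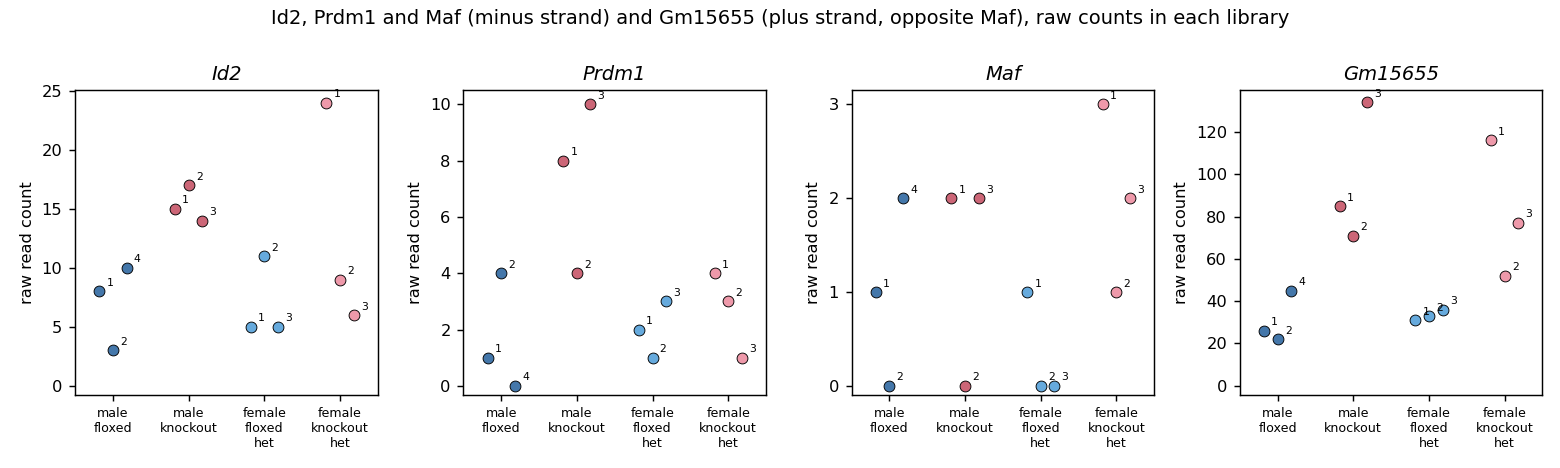
Raw read counts (vertical axis, whole counts) of Id2, Prdm1 and Maf on the minus strand and of Gm15655 on the plus strand opposite Maf, in each of the 12 libraries, numbered within groups. Maf does not exceed 3 counts and Prdm1 10, while Gm15655 has 22 to 45 counts in floxed and 52 to 134 in knockout libraries.

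**Figure D4:**
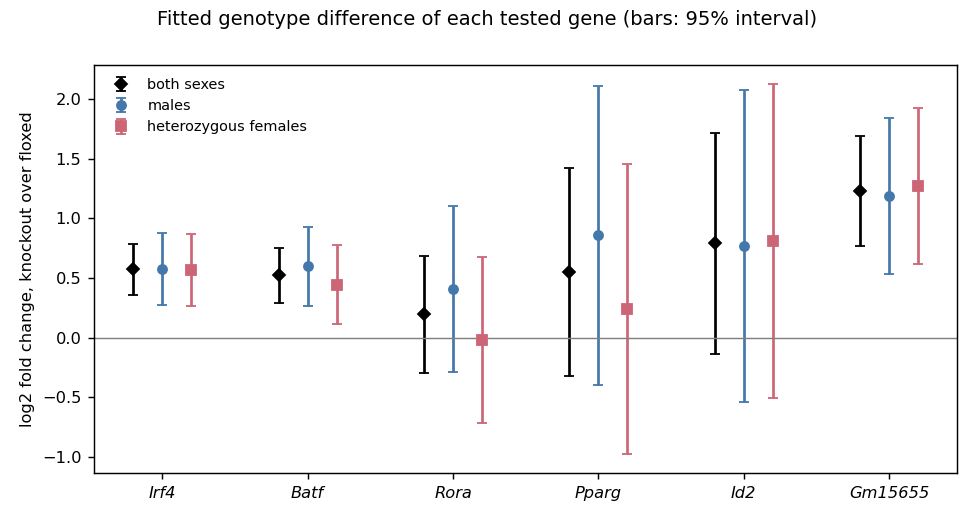
Fitted log2 fold change of knockout over floxed (vertical axis) for the 5 tested members and Gm15655, over both sexes (diamonds), in males (circles) and in heterozygous females (squares), with 95% intervals. The intervals of Irf4, Batf and Gm15655 lie above 0 in each comparison before adjustment for the number of genes, and those of Rora, Pparg and Id2 include 0.

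Genes whose level ran most like a member's over the 12 libraries were sought among 5423 genes of adequate level (5424 for Id2) by Pearson's r of log2 CPM, as a description, since the libraries share their genotype groups and depth. An r over 0.9 was found for 96 genes with Irf4, 41 with Batf, 16 with Rora, 12 with Pparg and 0 with Id2. The 2 genes named for Irf4 and for Batf are thus the first of many. Irf4 was most like Asf1b (r = 0.969), a histone chaperone gene of S phase, and Exo1 (r = 0.959), a DNA exonuclease gene. Over both sexes Asf1b rose by 1.02 (SE 0.16, edgeR adjusted p = 0.0105), a call lost without female knockout libraries 1 and 3 (0.86, edgeR adjusted p = 0.121). Exo1 rose by 0.91 (SE 0.17, edgeR adjusted p = 0.0175), a call kept in 18 of 23 alternatives. Batf was most like the integrin gene Itgae (r = 0.976) and Galm (r = 0.976), which encodes a sugar mutarotase. Itgae rose by 1.06 (SE 0.15, edgeR adjusted p = 0.0078), a call kept in each of 23 alternatives. Galm rose by 0.77 (SE 0.12, edgeR adjusted p = 0.0088), a call kept in 22 of them. Rora was most like Nrp1 (r = 0.955), a surface receptor of thymic Treg cells, and Rnf125 (r = 0.941), a ubiquitin ligase gene. Pparg was most like Tmem26 (r = 0.962) and Hpgd (r = 0.956), which encodes a prostaglandin-degrading enzyme. Tmem26 ran from 3.04 to 111 CPM and Hpgd from 5.08 to 130 CPM. Id2 was most like Cox7c (r = 0.899, minus strand) and S100a13 (r = 0.890), at a level of few counts.

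Genes that these factors work with were described from lists chosen with earlier results of these data known, so their counts are not independent evidence. Of 19 partners and relatives in the AP-1 and IRF families 13 were tested, all on the plus strand. Jun and Junb were not tested, and Jund was at 0.14 (SE 0.78, edgeR adjusted p = 0.929). None was called over both sexes in edgeR (2 at an unadjusted p under 0.05, 1 in DESeq2 and 3 in limma-voom, all lower), and their median log2 fold change was -0.05, where that of all tested genes was -0.02. Of all 12411 genes DESeq2 called 1129 over both sexes (772 higher, 357 lower) and limma-voom 4630 (1834 higher, 2796 lower). How many of all genes had an unadjusted p under 0.05 was not counted, here or for the lists below. Irf1, an interferon-induced family member, was at -0.51 (SE 0.15, edgeR adjusted p = 0.0993) and Irf3, which acts in innate sensing, at -0.38 (SE 0.16, edgeR adjusted p = 0.223). Irf3 was at 0.0086 in males and -0.78 in females, and Irf1 at -0.21 and -0.81, without a call in edgeR in either sex. Without female knockout libraries 1 and 3 Irf1 was at -0.24 and Irf3 at -0.12 over both sexes. Without female knockout library 2 they were at -0.69 (edgeR adjusted p = 0.00149) and -0.56 (edgeR adjusted p = 0.00561), past the threshold. As reported, no tested gene of this list passed the threshold in the direction of Irf4 and Batf in any of the 3 tools. For the JUN partners of BATF this covers Jund alone.

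Of 6 E protein and other Id genes, the binding partners and relatives of ID2, 5 were tested, 3 of them on the plus strand, and none was called in edgeR (2 at an unadjusted p under 0.05, 1 in DESeq2 and 5 in limma-voom, of which 1 was higher). Their median was -0.68 over both sexes, -0.14 in males and -1.002 in females. Of all 12411 genes DESeq2 called 1129 over both sexes (772 higher) and limma-voom 4630 (1834 higher). Id1 was at -1.35 (SE 0.41, edgeR adjusted p = 0.105) and Id3 at -0.57 (SE 0.21, edgeR adjusted p = 0.175). Without female knockout libraries 1 and 3 they were at -0.80 and -0.23. Without female knockout library 2 they were at -1.96 (edgeR adjusted p = 0.00413) and -0.82 (edgeR adjusted p = 0.00247), past the threshold.

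Of 25 other factors of differentiated T or Treg cells 18 were tested, 11 of them on the plus strand. In edgeR 1 rose and 0 fell (9 at an unadjusted p under 0.05), beside 2.68% higher and 0.637% lower over all genes, and the median was -0.35. DESeq2 called 5, of which 2 were higher, and limma-voom 12, of which 3 were higher. Of all 12411 genes DESeq2 called 1129 (772 higher, 357 lower) and limma-voom 4630 (1834 higher, 2796 lower). Bhlhe40, a helix-loop-helix repressor of activated T cells, rose by 0.52 (SE 0.09, edgeR adjusted p = 0.0136), a call lost without female floxed library 2 or 3 (highest edgeR adjusted p = 0.0566) and without female knockout libraries 1 and 3 (edgeR adjusted p = 0.144). Of 9 factors of resting T cells or antagonists of the effector programme 8 were tested, and in edgeR 0 rose and 1 fell (2 at an unadjusted p under 0.05, 1 in DESeq2 and 3 in limma-voom, all lower), with a median of -0.22. Lef1, a Wnt pathway factor of naive T cells, fell by 0.43 on the log2 scale (SE 0.10, edgeR adjusted p = 0.0463), and this call was lost in 9 of 12 fits that left out 1 library, all except male floxed 4, male knockout 3 and female knockout 2 (edgeR adjusted p 0.104 to 0.147), without female knockout libraries 1 and 3 (edgeR adjusted p = 0.169), with the macrophage covariate (-0.34, edgeR adjusted p = 0.13) and with RLE scaling (edgeR adjusted p = 0.0542). Bach2, which holds back effector genes at AP-1 sites, was at -0.23 (SE 0.10, edgeR adjusted p = 0.236).

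Of 37 surface, secreted and tissue genes of effector Treg cells 30 were tested. In edgeR 16 rose and 0 fell over both sexes, beside 2.68% higher and 0.637% lower over all genes, with a median of 0.81 and 28 of 30 above 0. DESeq2 called 19, all higher, and limma-voom 22, of which 21 were higher. Of all 12411 genes DESeq2 called 1129 (772 higher, 357 lower) and limma-voom 4630 (1834 higher, 2796 lower). By the smallest p the rises were led by Cxcr6, a chemokine receptor gene (2.11, SE 0.24), Il1rl1 for the IL-33 receptor (1.58, SE 0.17), the IL-18 receptor genes Il18rap (1.52, SE 0.18) and Il18r1 (1.25, SE 0.14) and the costimulator gene Icos (1.04, SE 0.14), as log2 fold changes. Their edgeR adjusted p values were 0.00325, and 0.00631 for Icos, and all of these kept their call in each of 23 alternatives. Within each sex, DESeq2 called 235 of all 12411 genes in males and 706 in females, and limma-voom 177 in males and 5437 in females. In males alone none of the 30 was called in edgeR (19 at an unadjusted p under 0.05, 12 in DESeq2, 14 in limma-voom) and in females 3 were (18 at an unadjusted p under 0.05, 15 in DESeq2, 24 in limma-voom, of which 21 were higher). The 3 in females became 20 without female knockout library 2, 6 without male floxed library 4, 2 without male floxed library 1, 3 without male knockout library 3 and 0 without any other single library. Without female knockout libraries 1 and 3 the number called over both sexes was 7, and without female floxed library 2 or 3 it was 10.

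**Figure D5:**
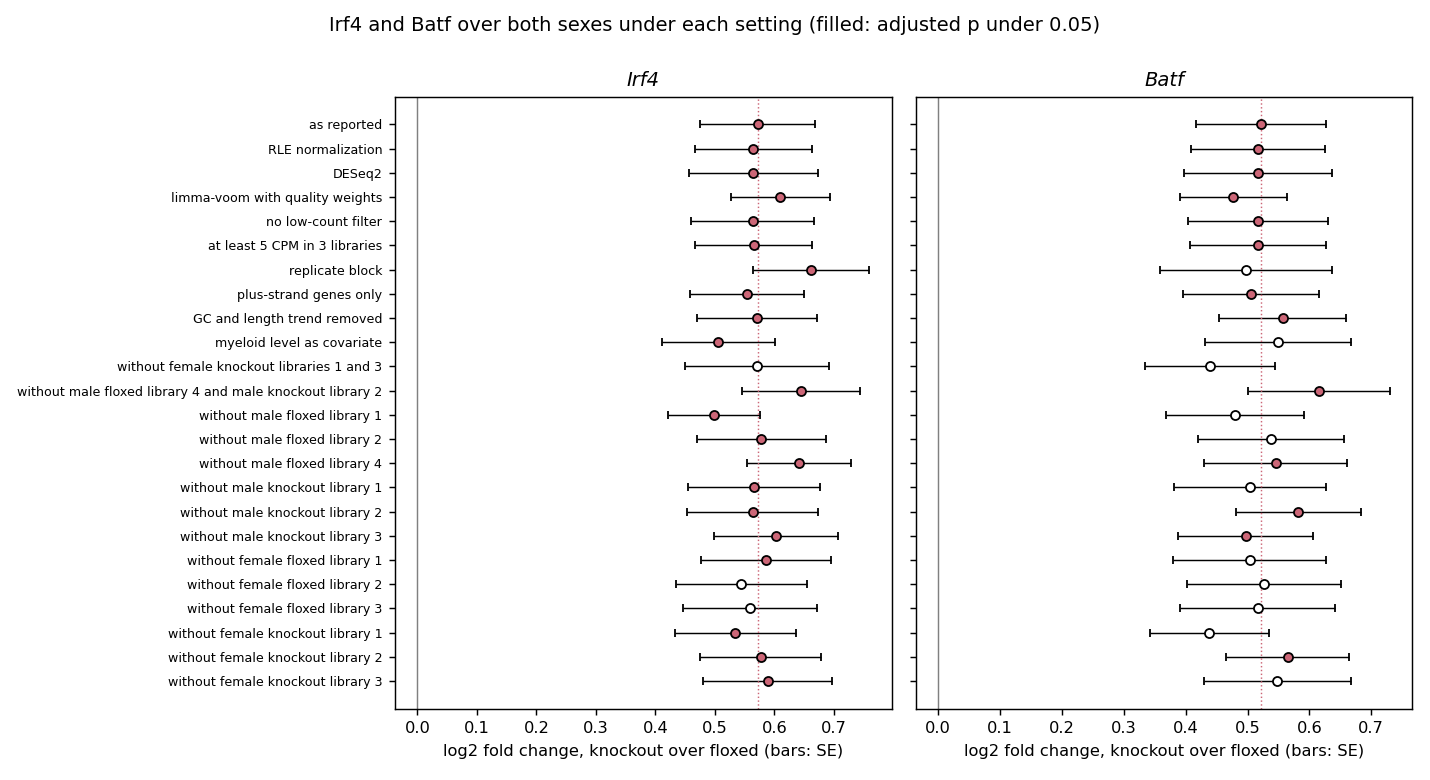
Log2 fold change of Irf4 (left) and Batf (right) over both sexes (horizontal axis, from 0, bars the SE) as reported and under each of 23 alternatives (rows); filled points have an adjusted p under 0.05. Irf4 stays between 0.50 and 0.66 and is filled in 20 alternatives, Batf stays between 0.44 and 0.62 and is filled in 12.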

How the data were processed

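The authors deposited a table of read counts by gene symbol, not normalized, for 12 libraries built with a stranded SMARTer kit, per the labels' protocols. CASAVA, STAR 2.5.2b, STAR 2.3.0e, HTSeq 0.6.1p1 and build mm9 are named in the submitters' processing notes. The annotation and strand setting are not given in the sources used here. The HTSeq lines that name no gene were dropped before library sizes were computed, and 29.5 to 35.7% of reads lay in genes. Strand, exon length and GC content came from GENCODE release M21 by symbol (54510 of 55453 genes matched). No coordinates from GENCODE are given, and those of the promoters are RefSeq's on GRCm38.p6.

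In edgeR 4.0.16 (R 4.3.3) genes were filtered with filterByExpr on the 4 groups, libraries scaled by TMM, and a robust quasi-likelihood model with 1 mean per group fitted to all 12 libraries. P-values were adjusted by Benjamini-Hochberg over 12411 genes with a threshold of 0.05. CPM use library sizes after TMM scaling, and log2 CPM a prior count of 2. Libraries of the same group differed by more than counting noise (chi-square per degree of freedom 5.38 to 171).

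All 9 members were named, with up to 5 called genes of smallest p per list, and for each tested member the 2 genes of highest r with a mean log2 CPM of at least 3 and no predicted-model symbol. Irf1, Irf3, Jund, Id1, Id3, Bach2, Gm15655 and Mrc1 lay outside this rule and were chosen after their values were seen. The same holds for the markers Adgre1, Timd4, Itgam, Cd5l, Csf1r, Ncr1 and Eomes. Members and lists were chosen with earlier results of these data known. Alternatives were RLE scaling, DESeq2 1.42.0, limma 3.58.1 voom with quality weights, other filters, the replicate number as a block, plus-strand genes only, removal of a GC and length trend fitted on 4115 genes, macrophage markers as a covariate, and libraries left out. The fit was tested on simulated counts with the means, library sizes and dispersions of these data. Each gene was drawn independently around 1 mean over all libraries. Differences shared by many genes, such as those of female knockout libraries 1 and 3, were thus absent, and the rates may not hold for the real libraries. It recovered 8% of 50 genes changed 1.5-fold, 30% at 2-fold, 60% at 3-fold and 76% at 4-fold. Of 93 genes called there, 6 were not among the changed ones. Most changes of 1.5-fold and 2-fold were thus missed. Figures used matplotlib 3.10.9 in Python 3.11.15.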

Additional observations from a re-analysis of the deposited data

How the results depend on the processing

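Over both sexes, Irf4 kept its call in 20 and Batf in 12 of 23 alternatives, with the same direction in each. The number of members called over both sexes, 2 as reported, was 1 with the replicate block, 1 with the macrophage covariate, 0 without female knockout libraries 1 and 3, and 0 to 2 with each library left out. In males it was 2 in DESeq2 and 1 in limma-voom, against 0 as reported. In females it was 1 in DESeq2, 3 in limma-voom and 0 to 2 with each library left out. All genes called over both sexes numbered 411 (332 higher, 79 lower) as reported, 1129 (772 higher, 357 lower) in DESeq2, 4630 (1834 higher, 2796 lower) in limma-voom, 216 with the macrophage covariate, 44 without female knockout libraries 1 and 3, and 98 to 2940 with each library left out, most without female knockout library 2. The 3 genes called in males became 235 in DESeq2 and 177 in limma-voom, the 25 in females 706 and 5437, the 4 between floxed sexes 59 and 9, and the 0 for the difference between the sexes 0 and 1040.

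No pairing of the libraries by replicate number was evident. Deviations of same-numbered libraries from their group means correlated at 0.442 and -0.614 in males and at 0.189, 0.279 and -0.225 in females, and not every library correlated best with its own number. Such deviations cancel within a group, which ties these correlations to each other. With so few pairs they cannot show that pairing was absent. The replicate block moved the count over both sexes to 1218 (499 higher, 719 lower) and Batf to an edgeR adjusted p of 0.0682. It was not run between the floxed sexes, which share no block.

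Signs that changed belonged to differences that passed no threshold as reported. For Rora these were -0.10 over both sexes in limma-voom and, in females, 0.18 with the macrophage covariate, 0.66 without female knockout libraries 1 and 3 and 0.0023 when the male libraries floxed 4 and knockout 2 were left out. With each library left out, Rora ran from -0.049 to 0.29 over both sexes and from -0.51 to 0.19 in females, and Pparg in females from -0.18 to 0.93. Pparg in females was -0.080 without female knockout libraries 1 and 3. The female minus male difference was 0.24 for Pparg in limma-voom and -1.02 to 0.090 with each library left out, 0.25 for Rora without female knockout libraries 1 and 3, and for Irf4 0.034 with at least 5 CPM in 3 libraries, 0.0056 without female knockout libraries 1 and 3 and -0.15 to 0.13 with each library left out. Where 1 library of a group was left, it is assumed to vary like the others. The 5 minus-strand members had counts under 25, also in the most deeply sequenced library, so their values are imprecise.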
